A study of Homo sapiens with 16 samples.

Results

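A set of 10 genes that are widely used as androgen-induced signature genes in prostate cancer cells was followed across 8 groups of VCaP cell cultures: NDRG1, ELL2, EAF2, VAPA, MPHOSPH9, ZBTB10, C1orf116, HERC3, PTGER4 and MAF. The genes were taken by name, and all 10 were found once each among the 58302 genes of the count files, of which 40888 had a count. All 10 passed the filter on low counts, as did 22553 genes in all. VCaP, derived from a human prostate cancer metastasis, carries a fusion of ERG to the androgen-driven promoter of TMPRSS2. The series asks how the lines Ver and Vc differ in their response to an androgen and to an antiandrogen. Ver cells, labelled VCaP_enz, had been kept for 4 months in 1 µM enzalutamide, and Vc cells, labelled VCaP_ctrl, for 4 months in ethanol. Steroids were then withheld from both lines for 48 h or longer (charcoal-stripped serum, no phenol red), and 1 of 4 treatments was given for 24 h. These were 1 nM dihydrotestosterone (DHT) plus 1 µM enzalutamide, 1 nM DHT, 1 µM enzalutamide, or control medium. Each of the 8 groups had 2 polyA RNA libraries, 16 in all.

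DHT is the most potent natural ligand of the androgen receptor, a nuclear receptor that moves to the nucleus on binding it and activates genes from androgen response elements in enhancers and promoters. Enzalutamide competes for the ligand pocket, and hinders nuclear entry and DNA binding of the receptor. The signature genes serve as a readout of receptor output. Their products range from elongation factors of RNA polymerase II (ELL2 and its partner EAF2) and transcription factors (MAF, ZBTB10) to a ubiquitin ligase (HERC3) and a cell surface receptor (PTGER4). All 10 are protein-coding, and counts cover their exons (GRCh38, GENCODE release 29). On the plus strand lie EAF2 (chr3:121835183-121886526), HERC3 (chr4:88592423-88708542), PTGER4 (chr5:40679498-40693735), ZBTB10 (chr8:80485619-80526265) and VAPA (chr18:9914002-9960021). On the minus strand lie C1orf116 (chr1:207018521-207032756), ELL2 (chr5:95885098-95962071), NDRG1 (chr8:133237171-133302022), MPHOSPH9 (chr12:123152320-123244014) and MAF (chr16:79585843-79600714).

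Ver and Vc are a single line each, and the labels place all Vc libraries in sequencing lane 8 and all Ver libraries in lane 2, so line and lane cannot be told apart. The labels do not say whether the 2 libraries of a group came from separate cultures, so p-values measure the spread between these libraries. Each library held between 8155244 and 13273523 counts in genes. A further 45.0 to 50.6% of the reads fell in no counted exon, which can include reads within introns of genes. This share was lower with DHT than in control cells (45.3 to 45.6% against 48.7 to 49.0% in Ver, and 46.9 to 47.1% against 50.1 to 50.6% in Vc). The part of this in the results was not tested. The luminal prostate markers fixed for the check of the cell line summed to between 1594 and 3287 CPM (counts scaled to library size), while basal, endothelial and immune markers summed to at most 9.02 CPM. Fibroblast markers summed in Ver to 18.7 to 27.3 CPM with both compounds, 2.84 to 2.89 CPM with DHT and 81.1 to 90.3 CPM with enzalutamide, against 56.0 to 63.3 CPM in control. In Vc the sums were 4.56 to 6.19, 1.88 to 2.89 and 20.3 to 20.8 CPM in these treated groups, against 16.3 to 18.0 CPM in control. LUM, which encodes a matrix proteoglycan, made up most of the sum in the groups without DHT, with 73.9 and 81.1 CPM in Ver with enzalutamide, and the part of these markers in the results was not tested. In bulk RNA, fewer cells with a transcript and less transcript per cell cannot be told apart.

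The proximal promoters are shown for EAF2, MAF and C1orf116, since these members kept very different parts of their DHT response when enzalutamide was added. Whether promoter sequence is related to the part kept was not tested. Sequences are from RefSeq (GRCh38.p14), read 5′ to 3′ on the strand of the gene, and the parts upstream of the annotated gene are printed. Capitals mark GC boxes (GGGCGG on either strand) and TATA boxes (TATAAA).
EAF2 (chr3:121834959-121835182, plus strand): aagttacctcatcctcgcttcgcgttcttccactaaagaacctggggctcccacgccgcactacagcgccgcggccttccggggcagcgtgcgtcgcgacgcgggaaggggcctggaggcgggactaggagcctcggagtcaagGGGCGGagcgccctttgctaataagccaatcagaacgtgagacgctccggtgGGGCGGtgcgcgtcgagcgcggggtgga
MAF (chr16:79600738-79600987, minus strand): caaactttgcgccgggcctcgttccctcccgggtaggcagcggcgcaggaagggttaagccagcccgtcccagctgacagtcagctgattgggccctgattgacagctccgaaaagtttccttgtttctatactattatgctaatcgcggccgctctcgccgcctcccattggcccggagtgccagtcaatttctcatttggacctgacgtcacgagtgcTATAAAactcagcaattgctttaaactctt
C1orf116 (chr1:207032757-207033006, minus strand): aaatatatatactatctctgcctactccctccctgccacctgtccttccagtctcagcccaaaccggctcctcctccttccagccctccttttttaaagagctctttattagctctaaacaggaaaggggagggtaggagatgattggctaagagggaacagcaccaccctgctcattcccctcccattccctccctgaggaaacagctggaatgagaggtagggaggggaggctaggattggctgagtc
Of the 10 members, 7 were searched in 8 windows of 250 bases before the start that RefSeq gives. For PTGER4 and MPHOSPH9 this window lies within the GENCODE gene given above, and 1 of the HERC3 windows lies far upstream of the GENCODE start, so these are windows of other annotated starts. The palindromic androgen response element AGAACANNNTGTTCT and its single arm AGAACA, which lies within it, were searched on both strands and matched in none of the 8 windows, against 0.00285% and 12.4% of all 35116 such windows. GC boxes were in 6 of the 8 windows, against 42.6% of all windows, and a TATA box in 1, that of MAF, against 10.7% of all windows. An absent match says only that these letters are not in these 250 bases.

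DHT moved every signature gene in both lines: 9 of the 10 rose and PTGER4 fell. In the table as a whole, 21.2% of the 22553 genes rose and 22.9% fell with DHT in Ver, and 21.8% rose and 22.5% fell in Vc. The members' median log2 change was 1.10 in Ver and 1.02 in Vc, against −0.04 over all genes in each line. EAF2 had the widest response and MPHOSPH9 the narrowest among the members. A gene was called where edgeR's quasi-likelihood test gave an adjusted p under 0.05 (Benjamini-Hochberg, whole table), and ± after a log2 change is its standard error (SE).

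**Figure D1:**
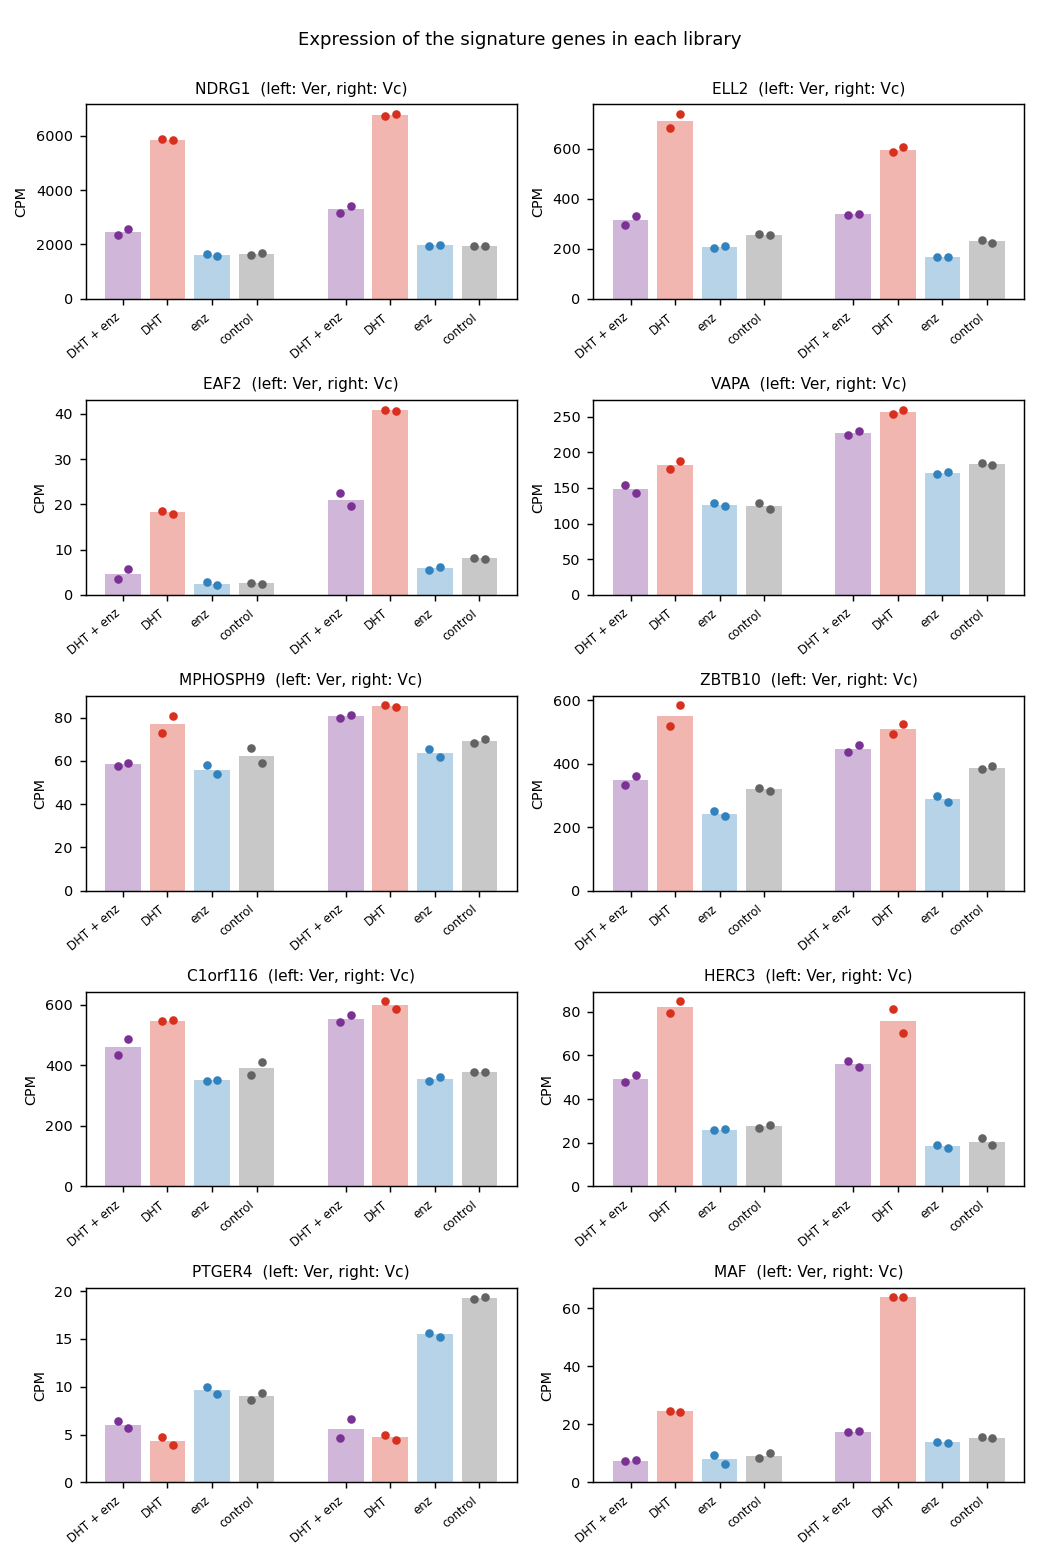
Expression of each signature gene in CPM (linear axis from 0) in the 8 groups, Ver left and Vc right, 1 panel per gene. Points are the 2 libraries of each group and bars their mean. DHT libraries lie above control libraries for 9 genes and below them for PTGER4 in both lines.

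NDRG1, a cytoplasmic protein induced by androgen and cell stress that restrains growth and spread in several cancer models, was the most abundant member per length, at 164 to 689 CPM per kilobase of exon over the 8 group means. In Ver it had 5857 and 5845 CPM with DHT, against 1617 and 1697 CPM in control. Vc cells had 6733 and 6805 CPM with DHT, against 1956 and 1945 CPM in control. The DHT libraries stood far above the controls without overlap, a log2 change of 1.82 ± 0.04 in Ver (adjusted p = 1.0e-79) and 1.79 ± 0.04 in Vc (adjusted p = 5.9e-79). NDRG1 is also a hypoxia-induced gene. Of 9 tested genes of a hypoxia list (10 written), 5 rose and 4 fell with DHT in Ver, and 5 rose and 3 fell in Vc. The list's medians were 0.23 and 0.19 on the log2 scale. Over the whole table, 21.2% of genes rose and 22.9% fell in Ver, and 21.8% and 22.5% in Vc. PGK1, VEGFA, SLC2A1, BNIP3 and ANKRD37 rose and LDHA, ADM and PDK1 fell in both lines, and EGLN3 fell in Ver. VEGFA, the angiogenic growth factor, rose by 1.69 in Ver and 1.95 in Vc and BNIP3, a mitophagy receptor, by 0.86 and 0.85. PDK1, a brake on pyruvate entry to the mitochondria, fell by 1.09 and 0.97.

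ELL2, a subunit that speeds RNA polymerase II along genes as part of the super elongation complex, had 684 and 739 CPM with DHT, against 260 and 254 CPM in control, in Ver. The Vc libraries had 588 and 605 CPM with DHT, against 236 and 222 CPM in control. The groups did not overlap in either line, and ELL2 rose by 1.47 ± 0.05 in Ver (adjusted p = 9.3e-58) and 1.38 ± 0.05 in Vc (adjusted p = 1.8e-54) on the log2 scale. EAF2, the ELL-associated factor that was first known as an androgen-response gene of the prostate, was low in control. In Ver it had 18.6 and 17.9 CPM with DHT, against 2.62 and 2.42 CPM in control, which are 27 counts in each control library. Its Vc levels were 41.0 and 40.8 CPM with DHT, against 8.24 and 7.99 CPM in control. EAF2 rose 7.22-fold in Ver (adjusted p = 3.3e-26) and 5.03-fold in Vc (adjusted p = 5.2e-29), again without overlap of the groups. ELL2 exons share 36 bases with the antisense gene AC104123.1. Counting was unstranded and in union mode per the file names, so reads touching these bases were ambiguous and counted for neither gene. Of 12 other genes of elongation complexes that hold ELL proteins, 6 rose and 3 fell with DHT in each line. Among all genes, 21.2% rose and 22.9% fell in Ver, and 21.8% and 22.5% in Vc. The list's median log2 changes were 0.27 in Ver and 0.12 in Vc. Within the list, AFF1, MLLT3 and ICE2 fell. AFF4, the scaffold of the super elongation complex, rose by 0.87 in Ver and 0.82 in Vc. In contrast, AFF1, a related scaffold, fell by 0.59 and 0.52 and MLLT3, a chromatin reader, by 0.96 and 1.18.

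MAF, a basic leucine zipper transcription factor, had 24.7 and 24.3 CPM with DHT, against 8.24 and 10.1 CPM in control, in Ver. MAF in Vc had 63.8 and 63.7 CPM with DHT, against 15.8 and 15.1 CPM in control. The log2 change was 1.41 ± 0.15 in Ver and 2.04 ± 0.13 in Vc (adjusted p = 2.3e-15 and 2.0e-31), and no DHT library overlapped a control. ZBTB10, a zinc finger protein known as a repressor of Sp-family genes, had 521 and 584 CPM with DHT, against 323 and 315 CPM in control, in Ver. Vc libraries had 493 and 524 CPM with DHT, against 384 and 393 CPM in control. ZBTB10 rose by 0.79 ± 0.05 in Ver and by 0.39 ± 0.05 in Vc on the log2 scale (adjusted p = 6.5e-30 and 5.0e-11). Exons of ZBTB10 share 594 bases with the antisense gene AC009812.1, and reads touching these bases were ambiguous and counted for neither gene.

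HERC3, a HECT-domain ubiquitin ligase, had 79.5 and 84.8 CPM with DHT, against 26.9 and 28.4 CPM in control, in Ver. HERC3 in Vc had 81.2 and 70.1 CPM with DHT, against 22.2 and 19.0 CPM in control. It rose 2.97-fold in Ver and 3.67-fold in Vc (adjusted p = 2.2e-32 and 8.3e-39), with no overlap. HERC3 exons share 459 bases with the gene AC098582.1 of the same strand, which had 0 counts or was absent from the count files. If the annotation used held both genes, reads touching these bases counted for neither. C1orf116, of largely unknown function, had 546 and 548 CPM with DHT, against 370 and 410 CPM in control, in Ver. C1orf116 in Vc had 612 and 586 CPM with DHT, against 379 and 377 CPM in control. These are log2 changes of 0.49 ± 0.05 in Ver and 0.66 ± 0.05 in Vc (adjusted p = 5.7e-16 and 7.7e-25). VAPA, an endoplasmic reticulum membrane protein that holds lipid transfer proteins at contact sites, rose by 0.55 ± 0.06 in Ver and 0.48 ± 0.06 in Vc. Of 13 VAPA-family and partner genes at contact sites, 6 rose and 4 (PITPNM2, VPS13C, OSBPL1A and VPS13A) fell with DHT in each line. Of all genes tested, 21.2% rose and 22.9% fell in Ver, and 21.8% and 22.5% in Vc. The list's median log2 changes were 0.16 in Ver and 0.17 in Vc. OSBP, which VAP proteins recruit to exchange sterol, rose by 0.85 in Ver and 0.91 in Vc, and OSBPL2 of the same family by 0.59 and 0.69. VPS13A, a bridge-like lipid transporter, fell by 0.72 and 0.78.

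MPHOSPH9, a centriolar protein that restrains the growth of primary cilia, moved least. In Ver it had 72.9 and 80.8 CPM with DHT, against 65.9 and 59.1 CPM in control. In Vc it had 85.6 and 84.8 CPM with DHT, against 68.2 and 70.3 CPM in control. The log2 change was 0.30 ± 0.08 in both lines (adjusted p = 7.2e-04 in Ver and 4.4e-04 in Vc). The call in Ver was lost without control replicate 2 (adjusted p = 0.0562) or DHT replicate 2 (adjusted p = 0.0504). MPHOSPH9 exons share 164 bases with the opposite-strand gene C12orf65 and 302 bases with AC073857.1. Reads touching these bases were ambiguous and counted for none of these genes.

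PTGER4, a receptor for prostaglandin E2 that raises cyclic AMP, went against the name of the set. In Ver it had 4.73 and 3.88 CPM with DHT, against 8.63 and 9.39 CPM in control. In Vc it had 4.93 and 4.47 CPM with DHT, against 19.2 and 19.4 CPM in control. PTGER4 fell by 1.06 ± 0.22 in Ver and by 2.03 ± 0.20 in Vc on the log2 scale (adjusted p = 1.4e-05 and 8.3e-18), and the groups did not overlap. The lowest library held 42 PTGER4 counts. Of 9 tested genes of prostaglandin E2 synthesis, transport, breakdown and reception (11 written), 3 rose and 2 fell with DHT in each line. The background was 21.2% higher and 22.9% lower in Ver, and 21.8% and 22.5% in Vc. PTGES, a prostaglandin E2 synthase, rose in both (log2 changes of 0.32 in Ver and 0.44 in Vc), PTGES3 and HPGD in Ver, and PTGS1 and SLCO2A1 in Vc, while PTGES2 and PTGER2 fell in both. SLCO2A1 and PTGS1 were low in Vc. SLCO2A1 had 2.05 and 2.54 CPM with DHT, against 0.46 and 1.02 CPM in control. PTGS1 had 5.09 and 5.69 CPM with DHT, against 1.46 and 1.87 CPM in control. PTGER2, the other receptor that raises cyclic AMP, had 2.50 and 2.03 CPM with DHT, against 12.8 and 11.7 CPM in control, in Ver. PTGER2 in Vc had 3.53 and 2.44 CPM with DHT, against 12.9 and 11.98 CPM in control. It fell by 2.43 ± 0.26 in Ver and by 2.04 ± 0.24 in Vc (adjusted p = 1.5e-17 and 5.9e-15).

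**Figure D2:**
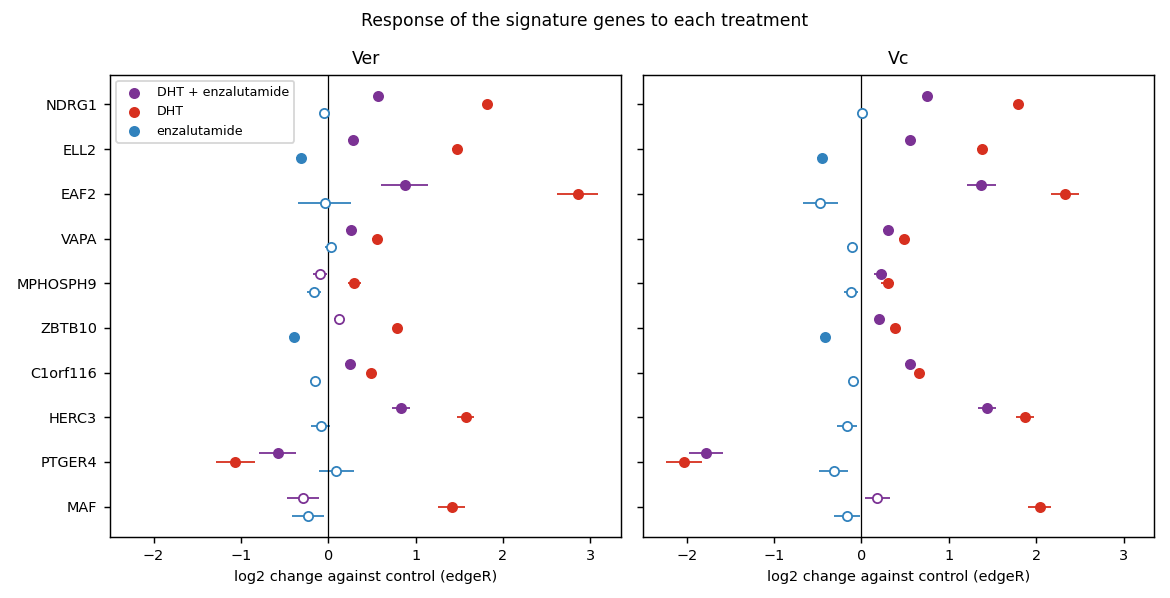
Log2 change (edgeR) of each signature gene against control in Ver (left) and Vc (right) for DHT plus enzalutamide, DHT, and enzalutamide. Bars are SEs, and filled points have an adjusted p under 0.05. DHT points lie right of 0 for 9 genes, and the points of the combination lie between 0 and the DHT points for most genes.

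Enzalutamide alone, in cells without added androgen, moved only 2 members, ELL2 and ZBTB10, which fell in both lines. Of all genes tested, 0.661% fell and 0.47% rose in Ver, and 0.381% fell and 0.155% rose in Vc. ELL2 had 201 and 211 CPM with enzalutamide, against 260 and 254 CPM in control, in Ver, and 166 and 168 CPM against 236 and 222 CPM in Vc. Its log2 changes were −0.32 ± 0.05 in Ver and −0.46 ± 0.05 in Vc (adjusted p = 2.6e-05 and 1.9e-10). ZBTB10 had 250 and 236 CPM with enzalutamide, against 323 and 315 CPM in control, in Ver, and 299 and 280 CPM against 384 and 393 CPM in Vc. Its log2 changes were −0.39 ± 0.05 in Ver and −0.42 ± 0.05 in Vc (adjusted p = 2.6e-08 and 8.2e-10). For the other 8 members the log2 changes ran from −0.23 to 0.09 in Ver and from −0.47 to 0.01 in Vc, and none passed the test. Both calls stayed when any 1 library of the comparison was left out.

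Added to DHT, enzalutamide lowered 9 of 10 members in Ver and 7 of 10 in Vc. In the whole table it lowered 13.2% and raised 13.7% of genes in Ver, and lowered 11.0% and raised 11.5% in Vc. The members' median log2 change was −0.70 in Ver and −0.31 in Vc, against 0.02 over all genes in each line. PTGER4 did not pass the test in either line, and neither did MPHOSPH9 and C1orf116 in Vc. NDRG1 had 2334 and 2574 CPM with DHT plus enzalutamide in Ver, against 5857 and 5845 CPM with DHT, and 3165 and 3408 CPM in Vc, against 6733 and 6805 CPM with DHT. Enzalutamide thus lowered NDRG1 by 1.25 ± 0.04 in Ver and 1.04 ± 0.04 in Vc on the log2 scale (adjusted p = 2.6e-59 and 3.6e-50). The steepest drop under enzalutamide was that of EAF2 in Ver and of MAF in Vc. EAF2 had 3.46 and 5.79 CPM with both compounds in Ver, against 18.6 and 17.9 CPM with DHT, and 22.5 and 19.6 CPM with both in Vc, against 41.0 and 40.8 CPM with DHT. These are log2 changes of −1.98 ± 0.20 in Ver and −0.96 ± 0.14 in Vc (adjusted p = 3.7e-17 and 1.1e-08). MAF had 7.33 and 7.69 CPM with both compounds in Ver, against 24.7 and 24.3 CPM with DHT, and 17.4 and 17.6 CPM with both in Vc, against 63.8 and 63.7 CPM with DHT. Its log2 changes were −1.70 ± 0.17 in Ver and −1.86 ± 0.13 in Vc (adjusted p = 3.8e-18 and 2.5e-27).

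The other members changed less under enzalutamide on top of DHT, and not all passed the test. ELL2 changed by −1.19 ± 0.05 in Ver and −0.82 ± 0.05 in Vc, HERC3 by −0.74 ± 0.09 and −0.43 ± 0.09, and ZBTB10 by −0.67 ± 0.05 and −0.18 ± 0.05 on the log2 scale. VAPA changed by −0.30 ± 0.06 in Ver and −0.18 ± 0.06 in Vc. The Vc calls of VAPA and ZBTB10 did not hold without Vc DHT plus enzalutamide replicate 1 (adjusted p = 0.108 for VAPA and 0.123 for ZBTB10) or Vc DHT replicate 2 (0.115 and 0.148, both adjusted p). MPHOSPH9 changed by −0.40 ± 0.08 in Ver (adjusted p = 2.2e-05), against a log2 change of −0.08 ± 0.08 in Vc that missed the threshold (adjusted p = 0.522). C1orf116 changed by −0.24 ± 0.05 in Ver (adjusted p = 4.0e-05), while its −0.11 ± 0.05 in Vc had an adjusted p of 0.107. PTGER4 changed by 0.49 ± 0.24 in Ver and 0.25 ± 0.23 in Vc, short of the threshold (adjusted p = 0.123 and 0.515).

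How much of the DHT effect was kept under enzalutamide was read as a share: the mean CPM with both compounds minus control, divided by the mean CPM with DHT minus control. The median share over the 10 members was 16.2% in Ver and 54.2% in Vc. It was lower in Ver for 10 of 10 members. NDRG1 kept 19.0% of its DHT effect in Ver and 27.7% in Vc, ELL2 12.3% and 29.6%, and EAF2 13.4% and 39.4%. ZBTB10 kept 12.1% in Ver and 49.5% in Vc, VAPA 41.8% and 58.8%, HERC3 39.8% and 64.5%, and C1orf116 45.8% and 80.0%. MAF kept none of its induction in Ver, with a share of −10.9%, and 4.27% in Vc. PTGER4 kept 63.2% of its fall in Ver and 93.6% in Vc. MPHOSPH9 spread widest, at −28.3% in Ver and 71.1% in Vc, on a DHT effect of only 14.4 CPM in Ver.

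Each share was also computed from every choice of 1 library per group, 8 choices per line. The ranges of Ver and Vc did not overlap for 9 members, with Ver lower in each. Over 7740 genes that moved the same way with DHT in both lines, the ranges did not overlap for 24.3%, and Ver was lower for 17.8%. For VAPA they did, at 24.7 to 59.8% in Ver and 51.5 to 66.6% in Vc. For MPHOSPH9 the range in Ver ran from −116 to 0.265%, against 62.9 to 78.6% in Vc. The 10 shares rest on the same 6 libraries per line and are not independent of each other. The lower share in Ver was not limited to the members: over these 7740 genes the median share was 47.9% in Ver and 56.4% in Vc, and it was lower in Ver for 63.1% of them. With enzalutamide alone as the baseline of the combination, the median share of the members was 30.6% in Ver and 68.0% in Vc, and PTGER4 turned round, at 76.4% in Ver and 67.5% in Vc. ZBTB10 then stood at 44.8% in Ver and 132% in Vc, and MPHOSPH9 at 16.9% in Ver and 106% in Vc.

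**Figure D3:**
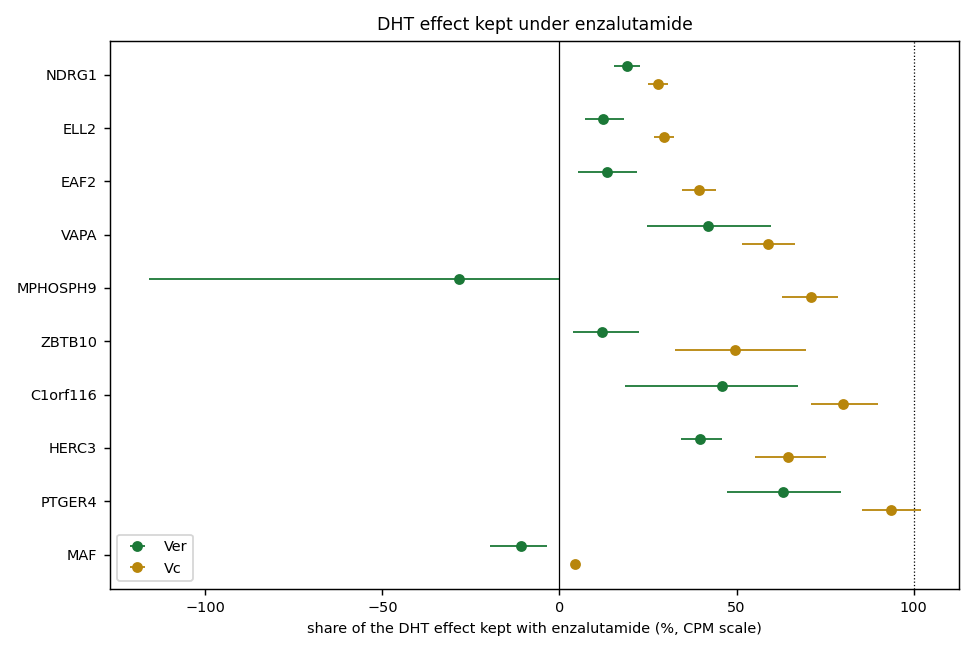
Share of the DHT effect kept under enzalutamide, in percent, for each signature gene in Ver and Vc. Points are from group means and bars span the 8 choices of 1 library per group. The solid line marks 0% and the dotted line 100%. The Ver points lie left of the Vc points for all 10 genes, and the bars overlap for VAPA.

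Whether enzalutamide lowered the DHT-treated level more in Ver than in Vc was tested for each gene as a difference of log2 changes. It did for 4 members, NDRG1, ELL2, EAF2 and ZBTB10, where 0.652% of all genes had a lower and 0.638% a higher value in Ver. ZBTB10 differed by −0.49 ± 0.07 (adjusted p = 1.9e-06), and this call stayed when any 1 of the 8 libraries was left out. Its rise with DHT alone was also larger in Ver, by 0.40 ± 0.07. Set against control, its response to both compounds differed by −0.08 ± 0.07 between the lines and was not called (adjusted p = 0.76). ELL2 differed by −0.36 ± 0.07 (adjusted p = 8.3e-04) and lost the call only without Ver DHT plus enzalutamide replicate 1 (adjusted p = 0.0960). EAF2 differed by −1.02 ± 0.25 (adjusted p = 0.00915), and was not called without that library (adjusted p = 0.378) or without Vc DHT plus enzalutamide replicate 1 (adjusted p = 0.111). NDRG1 differed by −0.21 ± 0.06 (adjusted p = 0.0453). Its call was lost without any one of 6 libraries (Vc DHT plus enzalutamide replicate 2, Ver DHT plus enzalutamide replicate 1, and both DHT libraries of each line), with adjusted p from 0.0932 to 0.503. The other 6 members had differences from −0.31 to 0.24 that did not pass the test.

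Set against control, cells with both compounds still had 6 members higher and 1 lower in Ver, and 8 higher and 1 lower in Vc. Over the whole table this held for 12.4% (higher) and 10.3% (lower) in Ver, and for 15.3% and 13.2% in Vc. NDRG1 stayed 1.48-fold above control in Ver and 1.69-fold in Vc, HERC3 1.78-fold and 2.72-fold, and EAF2 1.83-fold and 2.59-fold. ELL2 stayed 1.22-fold above control in Ver and 1.47-fold in Vc, VAPA 1.20-fold and 1.23-fold, and C1orf116 1.18-fold and 1.47-fold. PTGER4 was at 0.67 of control in Ver and at 0.291 of control in Vc. MAF did not pass the test in either line (log2 changes of −0.29 ± 0.18 in Ver and 0.18 ± 0.14 in Vc, adjusted p = 0.277 and 0.393). MPHOSPH9 and ZBTB10 were called in Vc (adjusted p = 0.0188 and 7.4e-04) and not in Ver (adjusted p = 0.466 and 0.0898).

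Several of these calls hung on single libraries. Without Ver DHT plus enzalutamide replicate 2, 4 members were called in Ver in place of 7. EAF2 in Ver was lost without that library (adjusted p = 0.438) or without Ver control replicate 2 (0.0733, adjusted p), and C1orf116 without the first of these (adjusted p = 0.0543). PTGER4 in Ver was lost on leaving out either Ver control library or either Ver DHT plus enzalutamide library (adjusted p from 0.0769 to 0.233), and with no filter or with DESeq2 (adjusted p = 0.0699 and 0.0914). ZBTB10 in Ver was called without Ver DHT plus enzalutamide replicate 1 (adjusted p = 0.0269). In Vc, MPHOSPH9 was lost without control replicate 1 (adjusted p = 0.131) or DHT plus enzalutamide replicate 1 (0.0708, adjusted p) or 2 (0.104, adjusted p), and with DESeq2 (adjusted p = 0.0687), and ZBTB10 without DHT plus enzalutamide replicate 2 (adjusted p = 0.0502).

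DHT also acted in the presence of enzalutamide. With both compounds, against enzalutamide alone, 7 members were higher and PTGER4 lower in Ver, and 8 were higher and PTGER4 lower in Vc. The background was 14.7% higher and 12.8% lower in Ver, and 16.4% and 14.4% in Vc. HERC3 had 47.6 and 51.0 CPM with both, against 25.9 and 26.1 CPM with enzalutamide, in Ver, and 57.5 and 54.8 CPM against 19.0 and 17.8 CPM in Vc. It was 1.89-fold higher in Ver and 3.05-fold higher in Vc (adjusted p = 1.3e-13 and 1.8e-30), and no library overlapped. MAF missed the threshold in both lines (adjusted p = 0.869 in Ver and 0.0569 in Vc), and MPHOSPH9 in Ver (adjusted p = 0.643). In Ver, EAF2 lost its call without Ver DHT plus enzalutamide replicate 2 (adjusted p = 0.362) or Ver enzalutamide replicate 2 (adjusted p = 0.114). VAPA lost it without Ver DHT plus enzalutamide replicate 1 (adjusted p = 0.0565), and PTGER4 without Ver DHT plus enzalutamide replicate 2 (adjusted p = 0.111) or Ver enzalutamide replicate 1 (adjusted p = 0.0746). The comparisons within a line share libraries, so they are not separate evidence.

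The DHT response itself differed between the lines for 1 member, ZBTB10, where 0.891% of all genes had a higher and 1.43% a lower response in Ver. ZBTB10 rose more in Ver, by a log2 difference of 0.40 ± 0.07 (adjusted p = 5.4e-05), and the call stayed without any 1 library. PTGER4 and MAF came next, with differences of 0.96 ± 0.30 and −0.63 ± 0.20 that did not pass (adjusted p = 0.0666 and 0.0777). NDRG1 and MPHOSPH9 differed by 0.02 ± 0.06 and −0.00 ± 0.11 in their DHT response. The response to both compounds differed for 4 members, where 0.723% of all genes were higher and 1.06% lower in Ver. PTGER4 had a higher value in Ver, by 1.20 ± 0.29 (adjusted p = 0.00696), and ELL2, C1orf116 and HERC3 a lower one, by −0.27 ± 0.08, −0.31 ± 0.07 and −0.61 ± 0.15 (adjusted p = 0.0287, 0.00539 and 0.00673).

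None of the 4 calls on the response to both compounds held without Ver DHT plus enzalutamide replicate 1, where the adjusted p was 0.415 for ELL2, 0.198 for C1orf116, 0.0664 for HERC3 and 0.0982 for PTGER4. ELL2 was also lost without Vc control replicate 2 (adjusted p = 0.264), Vc DHT plus enzalutamide replicate 1 (0.102, adjusted p) or 2 (0.151, adjusted p), or Ver control replicate 1 (adjusted p = 0.158), and with no filter on low counts (adjusted p = 0.0901). C1orf116 was lost without Vc DHT plus enzalutamide replicate 2 (adjusted p = 0.0770) or Ver control replicate 2 (adjusted p = 0.135). HERC3 was lost without Vc control replicate 2 (adjusted p = 0.137) or Vc DHT plus enzalutamide replicate 1 (adjusted p = 0.0610), and PTGER4 without the last of these (adjusted p = 0.140). NDRG1 was called without Ver DHT plus enzalutamide replicate 2 (adjusted p = 0.0190).

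The starting levels of the signature genes differed between the lines. In control medium 2 members were higher and 6 lower in Ver than in Vc, beside 9.13% of all genes higher and 9.73% lower. EAF2 stood furthest apart, with 2.62 and 2.42 CPM in Ver control cells, against 8.24 and 7.99 CPM in Vc control cells, 0.311 of the Vc level (adjusted p = 7.9e-10). PTGER4 was at 0.468 of the Vc level (adjusted p = 3.1e-07), MAF at 0.595 (adjusted p = 7.8e-05) and VAPA at 0.675 (adjusted p = 1.8e-15). NDRG1 and ZBTB10 were at 0.85 and 0.822 of it. HERC3 was 1.34-fold and ELL2 1.12-fold higher in Ver (adjusted p = 0.00222 and 0.0188), but HERC3 lost its call without Vc control replicate 2 (adjusted p = 0.104), and ELL2 without that library (adjusted p = 0.268), without Ver control replicate 1 (adjusted p = 0.129) or with no filter on low counts (adjusted p = 0.0753).

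With DHT, 1 member was higher and 4 lower in Ver than in Vc, beside 7.9% of all genes higher and 9.37% lower. ELL2 had 684 and 739 CPM in Ver, against 588 and 605 CPM in Vc. NDRG1, EAF2, VAPA and MAF were lower, MAF at 0.384 of the Vc level (adjusted p = 1.4e-18). ZBTB10 was called higher in Ver only without Ver DHT replicate 1 (adjusted p = 0.0154). With enzalutamide, 2 members were higher and 6 lower in Ver, beside 7.88% higher and 8.69% lower, the higher ones being ELL2 and HERC3. PTGER4 and MAF lost that call without Ver enzalutamide replicate 2 (adjusted p = 0.0723 and 0.0824). With both compounds 7 members were lower in Ver and none higher, beside 9.28% of all genes higher and 11.0% lower. EAF2 had 3.46 and 5.79 CPM in Ver, against 22.5 and 19.6 CPM in Vc, 0.22 of the Vc level (adjusted p = 4.0e-20). ELL2, HERC3 and PTGER4 were not called there (adjusted p = 0.142, 0.165 and 0.812), though ELL2 was called lower without Ver DHT plus enzalutamide replicate 2 (adjusted p = 0.0235).

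**Figure D4:**
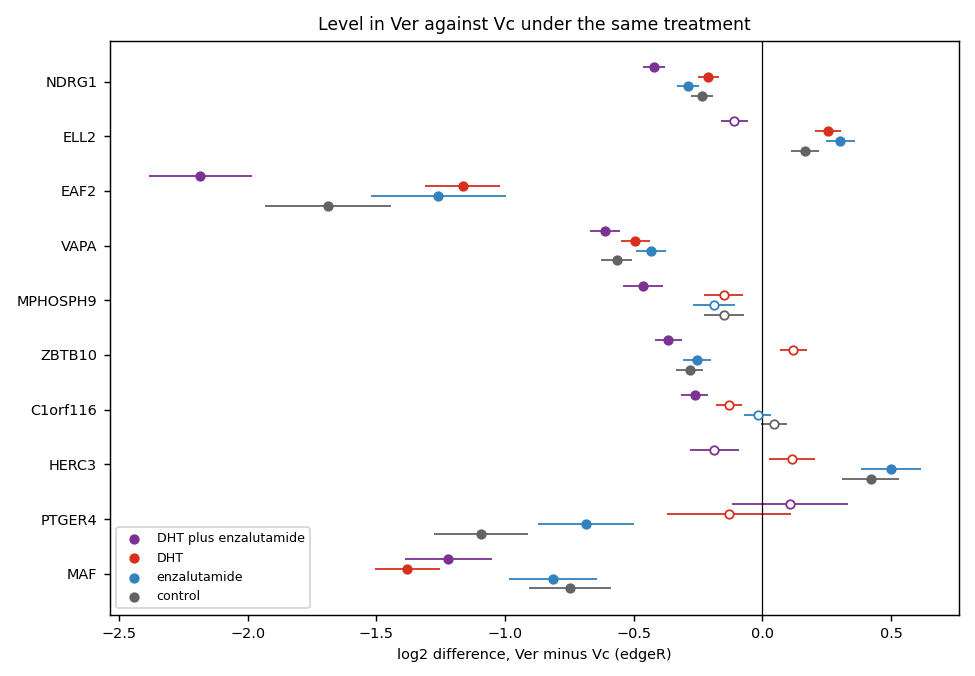
Log2 difference between Ver and Vc (edgeR) of each signature gene under each of the 4 treatments. Bars are SEs and filled points have an adjusted p under 0.05. EAF2, VAPA, MAF, NDRG1 and MPHOSPH9 lie below 0 under all 4 treatments, and MPHOSPH9 has a filled point only with both compounds.

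Ordered by level over the 8 groups, 9 members had a DHT group at the top, and for 5 of them the DHT group of the other line came next. NDRG1 ran from Vc with DHT through Ver with DHT, Vc with both and Ver with both to the groups without DHT, and only enzalutamide and control of the same line overlapped. ELL2 had no overlapping neighbours, with Ver with DHT first and Vc with enzalutamide last. EAF2 was higher in Vc with both compounds than in Ver with DHT alone, and the libraries of these groups did not overlap. VAPA was higher in Vc with both than in Ver with DHT too, and its Vc controls overlapped Ver with DHT. For MPHOSPH9 and C1orf116, Vc with both compounds overlapped Ver with DHT. For ZBTB10 and HERC3 the DHT groups of the lines overlapped and no other neighbours did, and for MAF the 3 Ver groups other than DHT overlapped as neighbours at the bottom. In PTGER4 the order was turned round, with the Vc controls highest, and the 4 groups with DHT overlapped as neighbours at the bottom. The highest group mean was 16.5 times the lowest for EAF2 and 8.49 times for MAF, against 1.52 times for MPHOSPH9.

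A second list of 12 androgen-signature genes was written with earlier results of these data known. With DHT, 10 of them rose and 2 fell in each line. Of all genes, 21.2% rose and 22.9% fell in Ver, and 21.8% and 22.5% in Vc. The list had median log2 changes of 1.78 in Ver and 1.81 in Vc, against −0.04 over all genes in each line. TMPRSS2, a surface serine protease, had 702 and 686 CPM with DHT, against 159 and 162 CPM in control, in Ver, and 794 and 803 CPM against 211 and 226 CPM in Vc. ADAM7 and MED28 were the 2 that fell. Enzalutamide on top of DHT lowered 9 and raised 2 of the 12 in Ver, and lowered 10 and raised 2 in Vc. Over all genes it lowered 13.2% and raised 13.7% in Ver, and lowered 11.0% and raised 11.5% in Vc. It lowered TMPRSS2 by 1.63 in Ver and 1.18 in Vc, and ABCC4, an efflux transporter, by 1.09 and 0.72 on the log2 scale. The difference between the lines was called for FKBP5, ABCC4 and TMPRSS2, all lowered further in Ver, and not for the other 9. Over all genes 0.652% had a lower and 0.638% a higher value in Ver.

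Among 21 relatives of the members, 10 rose and 3 fell with DHT in Ver, and 8 rose and 3 fell in Vc. Over the whole table, 21.2% of genes rose and 22.9% fell in Ver, and 21.8% and 22.5% in Vc. The median log2 change of the relatives was 0.18 in Ver and 0.10 in Vc. ELL3, among the relatives that rose in Vc, was low, with 0.08 and 0.17 CPM in Vc control. HERC1, PTGER2 and NDRG2 were the relatives that fell in both lines. NDRG2 went the other way to NDRG1: it had 8.47 and 7.75 CPM with DHT, against 22.2 and 28.4 CPM in control, in Ver, and 13.6 and 13.2 CPM against 35.2 and 32.4 CPM in Vc. Enzalutamide on top of DHT raised NDRG2 by 1.14 ± 0.16 in Ver and by 0.48 ± 0.14 in Vc (adjusted p = 7.5e-10 and 0.00626). PTGER2, like PTGER4, did not pass the test for enzalutamide on top of DHT in either line, with log2 changes of 0.06 ± 0.32 in Ver and 0.19 ± 0.27 in Vc (adjusted p = 0.926 and 0.703).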

How the data were processed

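Polyadenylated RNA of 16 VCaP libraries was sequenced. Per the submitters' processing notes, the tools were HISAT2, SAMtools, HTSeq 0.11.1, FastQC 0.11.7 and Trimmomatic 0.36-5, with GRCh38. The annotation release is not given in the sources used here. The authors deposited 1 file of counts per gene for each library, unstranded and in union mode per the file names, and 1 table of normalized signal. The deposited signal equals counts over size factors (largest relative gap 5.29e-10) and served to find the members by name.

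Gene positions, exon overlaps and lengths are from GENCODE release 29. The 5 lines of summary in each file, among them reads in no counted exon (45.0 to 50.6%) and ambiguous reads (7.09 to 8.55%), were left out. edgeR 4.0.16 (R 4.3.3) was run on the counts (filterByExpr by group, 22553 genes; TMM; robust quasi-likelihood fit over 16 libraries in 8 groups, 8 residual degrees of freedom; 17 comparisons, two-sided). Every adjusted p is from this test, Benjamini-Hochberg over all genes tested, unless DESeq2 1.42.0 is named. The SE is the Wald standard error by quasi-likelihood, or by Poisson counting where that is larger. CPM uses TMM-scaled library sizes, and the code was tested on simulated data.

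All members, 3 genes a list by their adjusted p for DHT in Vc (smallest first), genes asked for by small counts, and the 2 genes most like each member are named; 1 of these genes is not reported here. The members and lists were chosen with earlier results of these data known. The alternatives were DESeq2, other size factors, no filter, fits of the compared groups only, a replicate block, each library left out, and other scales and baselines of the share. A background share over all DHT genes was added after seeing the data. Replicate numbers shared between groups did not mark pairs in the labels.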

Additional observations from a re-analysis of the deposited data

Results flagged for a closer look

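For 9 results the test of the difference between Ver and Vc (edgeR, all genes) passed the threshold, each given as Ver minus Vc on the log2 scale. The DHT response of ZBTB10 differed by 0.40 (adjusted p = 5.4e-05). The effect of enzalutamide on top of DHT differed by −0.49 for ZBTB10 (adjusted p = 1.9e-06), −0.36 for ELL2 (adjusted p = 8.3e-04), −1.02 for EAF2 (adjusted p = 0.00915) and −0.21 for NDRG1 (adjusted p = 0.0453). The response to both compounds differed by −0.31 for C1orf116 (adjusted p = 0.00539), −0.61 for HERC3 (adjusted p = 0.00673), 1.20 for PTGER4 (adjusted p = 0.00696) and −0.27 for ELL2 (adjusted p = 0.0287). The 3 comparisons share the DHT, combination or control libraries. ZBTB10's calls alone stayed when each library was left out in turn.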

How the results depend on the processing

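No called member result changed direction. Leaving out 1 library each, 747 of 800 member results stayed on their side of the threshold, and under the other settings 828 of 837. Leaving out 1 library each, the counts of called members ran, for Ver and Vc, from 9 to 10 and 10 to 10 for DHT, 2 to 2 in each for enzalutamide, 9 to 9 and 5 to 7 for enzalutamide on top of DHT, 4 to 7 and 7 to 9 for both against control, and 6 to 7 and 9 to 9 for both against enzalutamide. For the differences between lines they ran from 1 to 1 (DHT response), 1 to 4 (on top of DHT) and 0 to 5 (both compounds). For Ver against Vc they ran from 6 to 8 in control, 5 to 6 with DHT, 6 to 8 with enzalutamide and 7 to 8 with both. Under the other settings each count was within 1 of the reported one, such as 8 for enzalutamide on top of DHT in Vc with other size factors or in a fit of the compared groups, against 7. Under the other settings 25 of 80 member shares moved beyond the range of their 8 choices of 1 library per group. Leaving out 1 library cannot take a share out of that range. The 120 of 120 shares that then stayed within it were therefore fixed in advance. The median share ran, without 1 library each, from 12.2 to 21.3% in Ver and 49.4 to 60.7% in Vc. On the log2 scale it was 30.9% in Ver and 60.9% in Vc, and with enzalutamide as baseline 30.6% and 68.0%. C1orf116 was lowered by enzalutamide on top of DHT in Vc with other size factors (adjusted p = 0.0453) and in a fit of the compared groups (adjusted p = 0.0206). That fit also called it lower in Ver than in Vc with DHT (adjusted p = 0.0249). NDRG1's difference on top of DHT was lost without the filter (adjusted p = 0.0678). DESeq2 gave no adjusted p for 13 member results, EAF2's difference on top of DHT and PTGER4's for both compounds among them.

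With the replicate number as a block, the counts of called members were as without it (10 for DHT in each line, 4 for the difference on top of DHT). The differences between replicates correlated only weakly between groups (r from −0.123 to 0.12 over 28 pairs of groups). Each group has only 2 libraries, so this cannot tell whether same-numbered libraries shared a batch. Counts over all genes moved most for enzalutamide (255 genes in Ver, 112 to 159 without 1 of 3 libraries; 121 in Vc, 47 to 62) and for the differences (523 for DHT, 300 to 325 without 1 library and 344 by DESeq2; 291 on top of DHT, 93 to 169; 402 for both compounds, 202 to 245, and 257 by DESeq2). Ver against Vc in control went to 2828 genes, of 4252, without Ver control replicate 2. Other scalings moved the median of all genes by at most 0.031. The causes were not tested. The lowest library held 24 counts of EAF2 and 42 of PTGER4, and the part of depth was not tested.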

Other observations

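The genes whose pattern over the 8 group means was most like that of a member, among 12418 genes with a mean of at least 5 CPM, were THUMPD1 and ZFHX3 for NDRG1 (Pearson r = 0.997 and 0.995) and RABGAP1 and DYNLL2 for ELL2 (r = 0.996 and 0.994). They were SAMD8 and PDS5B for EAF2 (r = 0.998 and 0.996), GNAQ and CFLAR for VAPA (r = 0.995 each) and TM9SF2 and ALG2 for HERC3 (r = 0.996 each). For MPHOSPH9 they were THUMPD3 and ZNF329 (r = 0.987 each), for ZBTB10 MFAP1 and RAB30-AS1 (r = 0.987 and 0.984), and for C1orf116 YTHDF3 and UBE2J1 (r = 0.994 and 0.993). For PTGER4 they were MCCC1 and ANP32E (r = 0.986 each), and for MAF UBXN2B and PIAS1 (r = 0.987 and 0.982). Both genes of a pair were read in the same libraries, and the values describe likeness only. Among the members, EAF2 and MPHOSPH9 were most alike (r = 0.961), and HERC3 and PTGER4 most opposed (r = −0.946).

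HPGD, the enzyme that breaks down prostaglandin E2, followed neither receptor. In Ver it had 48.0 and 58.8 CPM with both compounds, 169 and 176 CPM with DHT, and 108 and 107 CPM with enzalutamide, against 85.5 and 86.8 CPM in control. In Vc it had 61.2 and 64.4 CPM with both compounds, 134 and 142 CPM with DHT, and 170 and 162 CPM with enzalutamide, against 133 and 129 CPM in control. The combination thus lay below every other group of its line, although enzalutamide alone gave higher levels than control. The DHT response of HPGD differed between the lines by 0.93 ± 0.09 on the log2 scale (edgeR adjusted p = 8.9e-15), with a rise in Ver and a log2 change of 0.07 ± 0.06 in Vc that missed the threshold (adjusted p = 0.389).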
